A study of Mus musculus with 8 samples.

Results

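The response of wild-type mouse skin to imiquimod (IMQ) was read from 2 of the 8 arrays of the series, the array labelled WT_IMQ and the array labelled WT_CTRL. Both hold total RNA from dorsal skin of C57BL/6 males. Per the labels, 83.3 mg of Aldara cream with 5% IMQ was put on the back and ear each day for days 1 to 7, with a second cream 6 hours later that held either vehicle or alloferon, a peptide drug. The labels do not say which arrays had vehicle. The 6 other arrays came from males of the strain B6.Cg-Il22ra1tm1.1Koll/J, in which Il22ra1, the alpha chain of the IL-22 receptor, is altered, and are labelled KO: KO_CTRL and KO_IMQ, KO_CTRL-B and KO_IMQ_B, and KO_Allo and KO_IMQ_Allo. They form 3 pairs whose labels differ by IMQ, called here the KO plain, KO B and KO Allo pairs; the last had alloferon in both labels. The study states 4 mice per group, and the sources used here do not say if an array held the RNA of 1 mouse or a pool. They also leave unsaid how old the mice were, what the letter B stands for and in which cells the Il22ra1 allele was inactive.

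Each probe set with 1 gene symbol was taken, and where a gene had several, the brightest on average stood for it, which left 22180 genes. The response is the log2 value on WT_IMQ minus that on WT_CTRL, so that 1 log2 unit is a 2-fold difference. With 1 array on each side there is no replicate check and no p-value for any wild-type difference below, and the statements describe these 2 arrays. Levels of different genes come from different probe sets and are not set against each other. The median of all genes on all arrays was 6.05, and the median difference between the wild-type arrays was -0.02.

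Imiquimod binds Toll-like receptor 7, a sensor of single-stranded RNA in the endosomes of dendritic cells and macrophages, and in repeated topical use it gives mouse skin a scaly, thickened, inflamed state that is used as a model of psoriasis. In that state keratinocytes turn from their usual differentiation toward the keratins and envelope proteins of wounded skin, and cytokines of the IL-36, IL-23, IL-17 and IL-22 axes pass signals between immune cells and epidermis. The cornified envelope is the layer of cross-linked proteins that replaces the membrane of dead keratinocytes, and the hair follicle is a separate epithelium with keratins of its own for the inner root sheath and the shaft.

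The labelled tissue was checked first. Keratinocyte markers read well above the median of all genes on both wild-type arrays (Krt14 10.96 without IMQ and 12.33 with it, Krt10 12.51 and 12.81), as did the fibroblast collagen Col1a1 (12.74 and 12.78). Skeletal muscle markers were also present, with Acta1 at 12.33 and 10.49. Of the T cell chains, Cd3d (4.63 and 5.66) and Cd3g (5.84 and 6.00) stayed under the median, while Cd3e (6.73 and 6.82) lay above it. Il22ra1 itself, whose receptor chain the KO label names, read 8.23 and 8.64 on the wild-type arrays and 8.59 to 9.40 on the 6 arrays labelled KO, so the labels are not borne out at the level of this probe set. The sources used here do not place the probe set relative to the altered stretch of the gene, and the arrays are therefore named by their labels. KO_Allo stood apart among the arrays without IMQ: the median of the 4 injury keratins was 11.08 there against 7.53 on WT_CTRL, 6.99 on KO_CTRL and 8.65 on KO_CTRL-B.

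Between the wild-type arrays, 555 genes (2.50% of 22180) were at least 1 log2 unit higher with IMQ and 470 (2.12%) were at least 1 unit lower. Differences of at least 2 units numbered 112 upward and 124 downward, and those of at least 3 units 44 and 56. Most genes moved far less: the central 90% of differences lay between -0.66 and 0.71. Of the 555, 475 had a WT_IMQ value above the median level of all genes, and of the 470, 411 had a WT_CTRL value above it. Each set was judged on the array where it read higher. By the higher of their 2 wild-type values, 11739 of all 22180 genes also lay above that level. The upper end was led by injury keratins, small proline-rich and late envelope proteins, protease inhibitors and calprotectin, and the lower end by hair keratins and hair keratin-associated proteins.

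**Figure D1:**
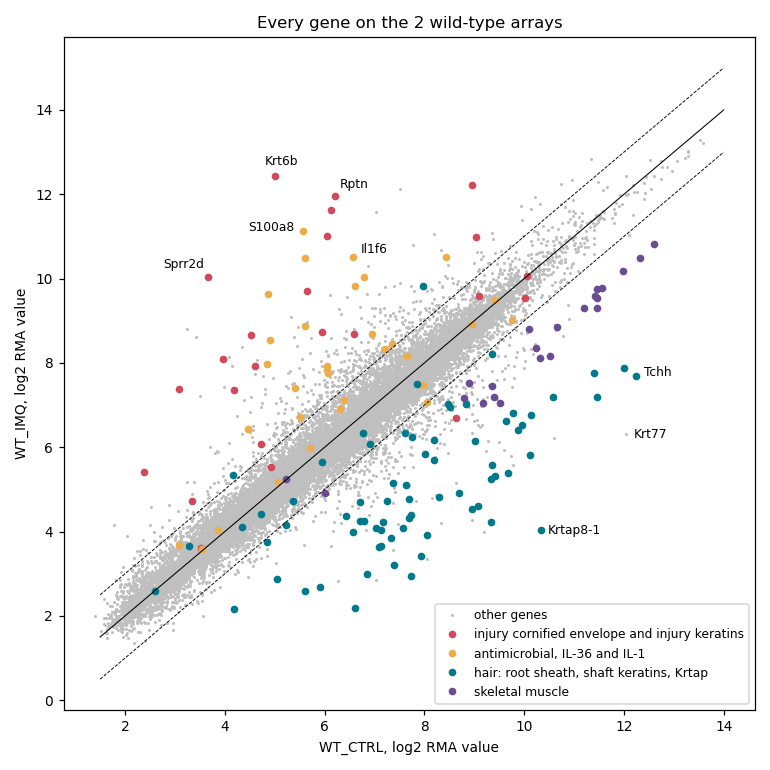
Log2 RMA value of every gene on WT_CTRL (horizontal axis) and WT_IMQ (vertical axis), with 4 sets of lists in colour; the solid line marks equal values and the dashed lines a difference of 1 log2 unit. Most envelope and injury keratin genes lie above the upper dashed line (15 of 20 and 3 of 4), up to Krt6b at 12.44 against 5.00, and most hair genes below the lower one (36 of 45 keratin-associated proteins), down to Krtap8-1 at 4.04 against 10.33.

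Krt6b, a keratin that epidermis makes after injury, had the highest difference of all: 5.00 on WT_CTRL and 12.44 on WT_IMQ, or 7.45 log2 units (174-fold). Its partner Krt16 read 6.12 and 11.64, and Krt6a 8.95 and 12.22. Krt6a and Krt6b are near copies, so their probes may share signal and the split between them is uncertain. Krt17, which the same list holds and which hair follicles also make, read 10.02 without IMQ and 9.53 with it. Thus 3 of the 4 injury keratins were past 1 unit and Krt17 was not. On the arrays labelled KO, Krt6b differed by 7.99 in the plain pair and 5.22 in the B pair, but by 0.29 in the Allo pair, where the array without IMQ already read 11.83.

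**Figure D2:**
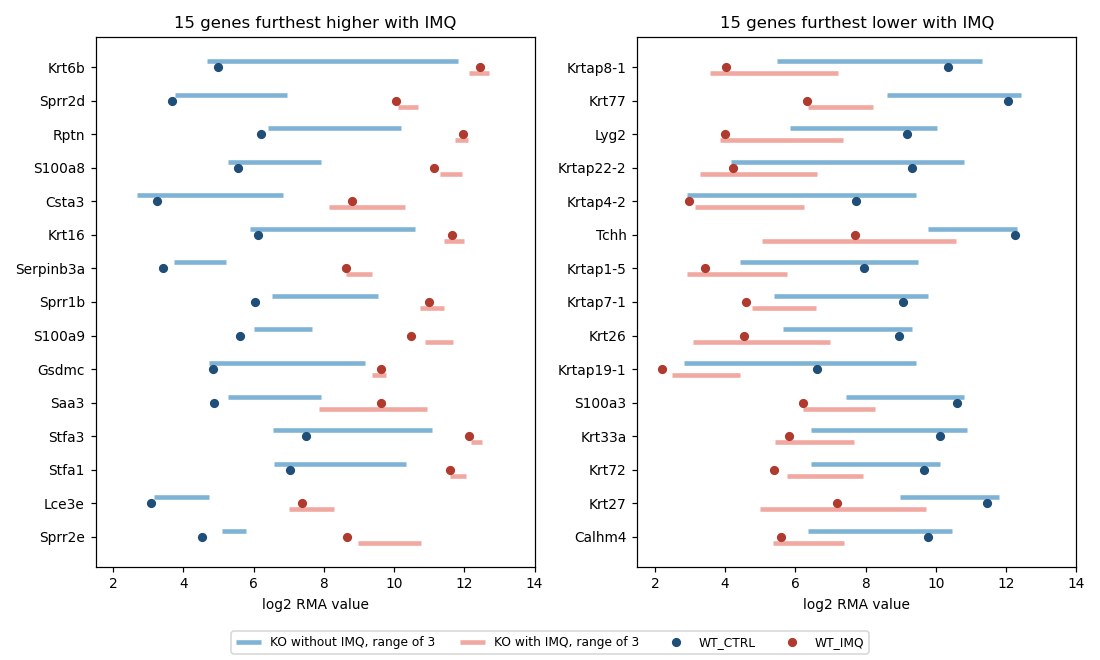
Log2 RMA values of the 15 genes furthest higher and the 15 furthest lower with IMQ in wild-type skin. Dark points are WT_CTRL (blue) and WT_IMQ (red), and pale bars span the 3 arrays labelled KO without (blue) and with IMQ (pink); for Krt6b the blue bar runs from 4.67 to 11.83 and the pink bar only from 12.12 to 12.71.

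Most envelope proteins made in injured epidermis read higher, by unequal amounts. Of 20 measured members, 15 were at least 1 unit higher and 1 was lower, with a median of 2.91 against -0.02 over all genes. Sprr2d, a small proline-rich protein that is cross-linked into the envelope, read 3.67 and 10.05, a difference of 6.38. Sprr1b read 6.05 and 11.01. The late envelope protein Lce3e read 3.09 and 7.39, and repetin (Rptn), a large S100-fused envelope protein, 6.21 and 11.96. All 4 of these were near 4 log2 units higher or more on WT_IMQ. Not every relative did the same: Sprr1a stayed at 10.06 and 10.07, Sprr3 at 3.52 and 3.61 and involucrin (Ivl), an early envelope scaffold, at 9.09 and 9.59, while Sprr4 read 8.64 and 6.68. Sprr2 and Lce genes are near copies within each family, and their single values are uncertain to that extent.

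Promoters of Sprr2 genes are printed here because neighbouring copies moved by different amounts and share the same motif. The sequences are the 250 bases before the RefSeq start, 5′ to 3′ on the strand of the gene; capitals mark matches to an AP-1 motif (TGANTCA) and to TATAAA.
Sprr2d promoter, GRCm38.p6, chr3:92338890-92339139, plus strand: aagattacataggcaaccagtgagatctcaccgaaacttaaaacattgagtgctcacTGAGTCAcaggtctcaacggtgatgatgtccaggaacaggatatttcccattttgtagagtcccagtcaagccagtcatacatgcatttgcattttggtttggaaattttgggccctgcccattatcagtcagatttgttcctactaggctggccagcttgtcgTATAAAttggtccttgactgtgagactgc
Sprr2e promoter, GRCm38.p6, chr3:92351893-92352142, plus strand: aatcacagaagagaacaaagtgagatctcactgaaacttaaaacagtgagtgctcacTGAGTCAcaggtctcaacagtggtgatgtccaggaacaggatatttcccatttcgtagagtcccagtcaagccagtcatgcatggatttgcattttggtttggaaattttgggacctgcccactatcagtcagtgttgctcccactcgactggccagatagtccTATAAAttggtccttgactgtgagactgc
Sprr2b promoter, GRCm38.p6, chr3:92316455-92316704, plus strand: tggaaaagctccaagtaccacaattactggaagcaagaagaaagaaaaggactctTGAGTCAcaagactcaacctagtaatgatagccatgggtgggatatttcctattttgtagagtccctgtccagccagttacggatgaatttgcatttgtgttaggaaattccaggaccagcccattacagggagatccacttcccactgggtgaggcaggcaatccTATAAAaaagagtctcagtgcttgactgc
Sprr2d and Sprr2e had 220 of 250 bases alike (88%), both with TGAGTCA at 193 to 187 bases and TATAAA at 29 to 24 bases before the start, and their differences were 6.38 and 4.13. Sprr2b, with 54.4% of bases shared with Sprr2d, held the same letters at 195 to 189 and at 29 to 24 bases, and its difference was 4.05. A match is a description of letters and not of binding.

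Many genes of the envelope, differentiation and antimicrobial lists lie side by side in the genome, so the counts for this stretch largely repeat those of the lists. From S100a8 to Rptn, in the gene order of RefSeq on GRCm38.p6, 50 genes were measured, of which 31 were at least 1 unit higher and 5 at least 1 unit lower, and the median was 1.38. The 9 adjacent genes that ran without a break past 1 unit upward went from Sprr2b to Sprr1b, with Sprr2j-ps among them. The exceptions inside the stretch were large as well: Prr9 read 9.73 and 5.80, cornulin (Crnn) 9.11 and 6.48, and filaggrin-2 (Flg2) 10.63 and 8.79. Outside the stretch, S100a3, a calcium-binding protein of the hair cuticle, read 10.60 and 6.22 and was among the 15 lowest of all genes. This stretch and the keratin stretch further below were chosen after their values were seen.

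**Figure D3:**
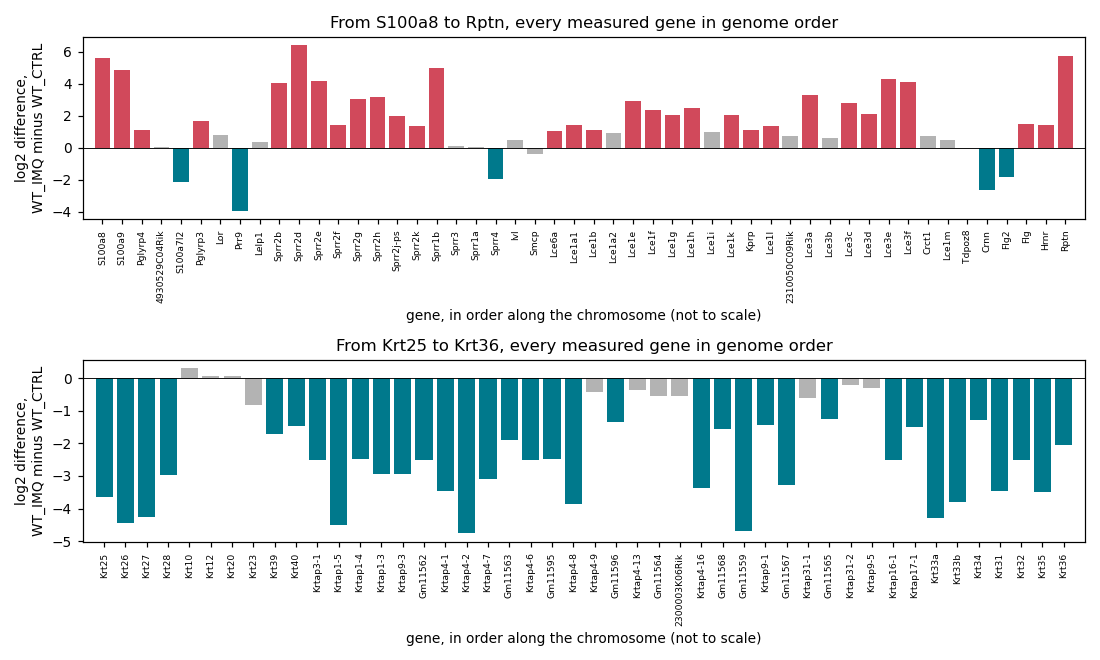
Difference between WT_IMQ and WT_CTRL in log2 units for each measured gene in genome order, from S100a8 to Rptn above and from Krt25 to Krt36 below; red bars are at least 1 unit higher, blue bars at least 1 unit lower and grey bars lie between. In the upper stretch 31 of 50 genes are red, and in the lower 35 of 46 are blue and 0 are red.

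The late cornified envelope 1 genes, which belong to normal as well as injured epidermis, were higher in 8 of 11 with a median of 1.41. Lce1e read 4.77 and 7.70, and Lce1m 7.46 and 7.92. Genes of ordinary epidermal differentiation leaned upward by less: 8 of 21 were at least 1 unit higher, 2 were lower, and the median was 0.88. Casp14, a protease of terminal differentiation, read 10.21 and 11.94. Filaggrin (Flg), whose breakdown products hold water in the outer skin, read 10.75 and 12.25, and loricrin (Lor) 10.28 and 11.06. Krt77, a type II keratin of upper epidermal layers and glands, went the other way by more than any other gene of this list, from 12.04 to 6.32. It also read 12.43 and 6.36 in the KO plain pair and 11.47 and 6.55 in the KO B pair, but 8.60 and 8.21 in the KO Allo pair.

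Basal layer genes gave a mixed picture. Krt14, the main basal type I keratin, read 10.96 and 12.33, and Krt15, a basal and follicle stem cell keratin, 10.89 and 9.37. Trp63, the master transcription factor of stratified epithelium, read 9.60 and 9.10. The median of the 7 basal genes was -0.21. Desmosome and tight junction genes were mostly within 1 unit: 1 of 14 was higher (Dsc2, 7.28 and 8.29) and 1 lower (Dsg2, 8.31 and 7.13), although a second probe set of Dsg2 differed by 0.10. Among 17 epidermal transcription factors, 0 were at least 1 unit higher; Grhl3, a driver of barrier formation, came nearest at 8.83 and 9.80, and Gata3, which acts in the inner root sheath, read 9.37 and 8.21.

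Protease inhibitors of keratinocytes were among the most shifted genes. Csta3, a cystatin of the stefin A family that blocks cysteine proteases, read 3.24 and 8.81, Stfa3 7.50 and 12.13, and Stfa1 7.04 and 11.59. Stefin A genes are near copies, and in the list 4 of 9 were at least 1 unit higher and 1 was lower (Cst6, a cystatin of another family, 9.58 and 8.54). Serpinb3a, a clade B serpin known from squamous epithelium, read 3.43 and 8.62, a difference of 5.19; the 3 pairs labelled KO gave 5.64 (plain), 4.91 (B) and 3.42 (Allo). Across all 17 clade B serpins only 4 were higher and 1 was lower (Serpinb6d, 8.31 and 6.10), and the median was 0.19.

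Many serine proteases of the epidermis read higher as well. Of 19 epidermal proteases, 11 were at least 1 unit higher and 1 lower, with a median of 1.24. Kallikreins shed the outermost cells by cutting desmosomes: Klk14 read 4.35 and 8.37, Klk13 6.87 and 10.30 and Klk9 6.63 and 9.81, whereas Klk7 read 10.47 and 11.16. The transmembrane protease Tmprss11b read 4.08 and 8.14. Matriptase (St14), which activates other epidermal proteases, was the member on the other side at 9.46 and 8.35.

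Enzymes that make and cross-link the barrier lipids had a median of 0.74, with 5 of 17 at least 1 unit higher. Degs2, which makes phytoceramides, read 5.22 and 7.45, and the lipoxygenase Alox12b, whose product is needed to tether lipids to the envelope, 8.14 and 9.72. Alox12e, another epidermal lipoxygenase, read 9.08 and 6.53 and was the only member at least 1 unit lower.

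Antimicrobial proteins and alarmins were higher in 11 of 19, with 0 at least 1 unit lower and a median of 1.20. S100a8 and S100a9, the subunits of calprotectin, which binds zinc and manganese and is made by neutrophils and stressed keratinocytes, read 5.57 and 11.14, and 5.60 and 10.48. Saa3, an acute phase protein, read 4.87 and 9.64. The beta-defensins Defb3 (4.85 and 7.98), Defb4 (5.40 and 7.42) and Defb14 (4.46 and 6.44) were each about 2 units higher or more, while Defb6 read 9.75 and 9.01. Camp differed by 0.17, Ltf by 0.10 and Saa2 by 0.03. These genes read under the median of all genes on both arrays (Camp 3.87 and 4.04, Saa2 3.55 and 3.58). S100a7a read 8.06 and 7.07 in wild-type skin and 6.12 and 9.01 in the KO plain pair; the B and Allo pairs had the wild-type sign (-0.46 and -1.45).

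Il1f9 and S100a9 are shown next because they stand for the cytokine and the alarmin ends of the response. Capitals mark matches to a STAT motif (TTCNNNGAA) in Il1f9, and to C/EBP (TTGCNNAA), GRHL (AACCNGTT) and NF-kB (GGGANTTTC) motifs, in that order, in S100a9.
Il1f9 promoter, GRCm38.p6, chr2:24186226-24186475, plus strand: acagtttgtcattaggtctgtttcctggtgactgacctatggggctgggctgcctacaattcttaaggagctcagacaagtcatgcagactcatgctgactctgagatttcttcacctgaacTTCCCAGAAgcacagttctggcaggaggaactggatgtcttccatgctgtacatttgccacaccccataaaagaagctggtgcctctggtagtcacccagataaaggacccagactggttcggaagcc
S100a9 promoter, GRCm38.p6, chr3:90695722-90695971, minus strand: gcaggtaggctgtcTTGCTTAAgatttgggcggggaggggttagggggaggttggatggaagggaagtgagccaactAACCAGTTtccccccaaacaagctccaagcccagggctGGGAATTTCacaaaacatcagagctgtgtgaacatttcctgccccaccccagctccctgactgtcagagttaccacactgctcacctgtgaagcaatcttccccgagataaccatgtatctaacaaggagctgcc
Il1f9 encodes IL-36 gamma. In its printed bases TTCCCAGAA lay 128 to 120 bases before the start, and in those of S100a9 GGGAATTTC lay 135 to 127 bases before it.

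The IL-36 cytokines, which keratinocytes release and which act back on them and on myeloid cells, read higher throughout. Il1f6 (IL-36 alpha) read 6.57 and 10.51, Il1f9 6.79 and 10.03, and Il1f8 (IL-36 beta) 6.62 and 9.82. Their natural antagonist Il1f5 also read higher, at 8.43 and 10.52, and these 4 lie side by side in the genome. In all 3 KO pairs each of the 4 was higher with IMQ, by 0.91 to 3.62. The receptor chain Il1rl2 differed by 0.08. Among the IL-1 genes, Il1a read 6.04 and 7.93 and Il1b 4.91 and 8.54. For Il1b the Allo pair went the other way, from 7.86 on KO_Allo to 4.79 on KO_IMQ_Allo, while the plain and B pairs differed by 2.93 and 4.29 upward. Of the 13 members, 8 were at least 1 unit higher and 0 lower, and the median was 1.73.

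The IL-23 and IL-17 axis moved little on these arrays. Il17f, a cytokine of type 17 lymphocytes, read 5.20 and 6.36, and Il23r, the receptor that sustains those cells, 4.07 and 5.16. Il17a read 3.78 and 4.22, Il23a 4.49 and 4.55 and Il12b 4.88 and 5.01, all under the median of all genes on both arrays. Il12rb2, the receptor chain for IL-12, read 7.13 and 5.44. In all, 2 of 14 were at least 1 unit higher and 1 lower, a median of 0.17.

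Genes of the IL-22 and IL-20 family, the axis that the arrays labelled KO address, were followed in full. Il22 read 2.06 and 2.31, and 1.49 to 1.81 on the 6 arrays labelled KO. All these values lay far under the median of all genes (6.05), so a change in Il22 may not be seen. Il22ra1 differed by 0.41, and Il10rb, the second chain of that receptor, read 7.26 and 8.38. Il22ra2, a soluble receptor that binds IL-22 and blocks it, read 5.11 and 3.97. Among the receptors of IL-20 and its relatives, Il20ra read 7.76 and 5.82 and Il20rb 8.99 and 8.85. The ligands Il19 (4.55 and 4.70), Il20 (5.13 and 5.22) and Il24 (4.68 and 5.49) stayed under 1 unit, as did Stat3 (9.47 and 10.03) and its feedback inhibitor Socs3 (6.20 and 6.97). Il20ra differed by -3.58 in the KO plain pair and -1.66 in the B pair, but by -0.12 in the Allo pair.

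Chemokines split into a few large differences and many small ones. Cxcl2, which draws neutrophils through Cxcr2, read 4.73 and 6.95, and Cxcl5 4.32 and 5.52, whereas Cxcl1 read 5.11 and 5.35. Among 20 chemokines of monocytes and lymphocytes, Ccl3 read 4.15 and 7.93 and Cxcl13, a B cell attractant, 6.45 and 9.56. Cxcl14, which resting epidermis makes, read 10.15 and 8.34. The other 17 differed by under 1 unit, Ccl20 (5.92 and 5.72) and Cxcl10 (5.40 and 5.00) among them. Of 17 other inflammatory cytokines, 0 were past 1 unit, with Tgfb1 (7.31 and 8.22), Il6 (2.75 and 3.35) and Tnf (5.61 and 6.11) as examples.

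Toll-like receptor genes were higher in 7 of 16, with 0 lower and a median of 0.86. Tlr7, the receptor that imiquimod binds, read 5.12 and 7.10, and Tlr8, its close relative, 6.42 and 8.57. Unc93b1, which carries these receptors to the endosome, read 8.06 and 9.71, and the lipopolysaccharide co-receptor Cd14 5.93 and 8.05. Tlr3 differed by 0.04. The genes that interferon turns on downstream did not share this size. Among 20 type I interferon response genes 1 was at least 1 unit higher (Oas2, 6.66 and 7.92), Isg15 read 5.15 and 5.21 and Mx1 4.27 and 4.21, and the median was 0.25. Among 14 interferon gamma response genes, 0 were past 1 unit either way.

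Other signalling lists stayed near the median of all genes. Ereg (8.58 and 9.89) and Hbegf (6.63 and 7.66), both EGF receptor ligands, made up the 2 of 9 that were at least 1 unit higher. NF-kB feedback genes had 2 of 13, led by the RNase Zc3h12a at 6.98 and 8.11, and immediate early genes 0 of 13. Prostaglandin enzymes had 3 of 14: Ptgs2, the inducible cyclooxygenase, read 6.13 and 8.58, the phospholipase Pla2g4e 7.37 and 9.19, and Alox5ap 7.37 and 8.40, the last with a second probe set at 0.42. None of the 22 cell cycle genes differed by 1 unit, and the median was -0.17. Mki67, the usual marker of dividing cells, read 10.16 and 9.88. In the pairs labelled KO the cell cycle median had the opposite sign, at 0.30 (plain), 0.17 (B) and 0.12 (Allo).

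Markers of myeloid cells were higher. In bulk skin, more cells of a type and more RNA per cell cannot be told apart. Neutrophil genes were at least 1 unit higher in 10 of 17 (median 1.43), including the chemokine receptor Cxcr2 (5.55 and 8.08), the integrin Itgam (6.85 and 9.63) and the G-CSF receptor Csf3r (6.19 and 8.23). The list holds S100a8 and S100a9, which keratinocytes also make. Other neutrophil genes did not differ by 1 unit: Ly6g read 3.39 and 3.48, and the granule protease Elane 5.35 and 5.06. Both lay under the median of all genes on both arrays, Ly6g at percentiles 9.12 and 9.61, so a change in them may not be seen. The median level of the list was 5.35 on WT_CTRL and 6.47 on WT_IMQ. Monocyte and macrophage genes were higher in 9 of 14 (median 1.16), with Adgre1 (F4/80) at 7.22 and 9.80, Arg1 at 6.70 and 9.33 and Cd68 at 7.56 and 9.09. Runs of neighbouring myeloid genes were past 1 unit together: 5 Clec4 lectins from Clec4a1 to Clec4a2, Clec4n with Clec4d and Clec4e, 4 Ms4a genes, and the 3 chains of complement C1q. The median of the C1q run was 1.46 in wild-type skin, 1.35 in the KO plain pair, 1.09 in the B pair and 0.39 in the Allo pair.

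Mast cell genes were at least 1 unit higher in 7 of 12 and lower in 0, with a median of 1.16. The mast cell carboxypeptidase Cpa3 read 7.09 and 9.62, the histamine-making enzyme Hdc 4.81 and 7.26, and the chymases Mcpt4 and Cma1 5.35 and 7.49, and 5.57 and 7.45. In contrast the receptor Kit, which melanocytes also carry, read 7.66 and 7.48, and Mrgprb2 5.58 and 5.27. The list had medians of 0.35 in the KO plain pair, 0.27 in the B pair and -0.57 in the Allo pair. For Cpa3 the wild-type difference exceeded the mean KO difference by 2.02 log2 units ± 0.92 (standard error), with an adjusted p of 0.983 in limma, so the contrast was not called.

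Lymphocyte and dendritic cell markers were close to the median of all genes. Of 13 T cell genes 1 was at least 1 unit higher (Cd3d, 4.63 and 5.66), while Cd3e read 6.73 and 6.82. NK cell (13), B cell (8) and dendritic or Langerhans cell genes (11) had 0 past 1 unit, and the Langerhans cell lectin Cd207 read 6.51 and 6.20. The dendritic cell lectin Cd209a differed by -0.24, with a second probe set at -1.43. The Skint genes, members of the butyrophilin-like family through which keratinocytes speak to resident gamma-delta T cells, were lower in 5 of 11: Skint5 read 6.26 and 2.82, Skint6 5.59 and 3.67, and Skint1 9.02 and 8.93. Skint genes resemble each other closely, so their single values are uncertain.

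Among dermal genes, some of those for matrix remodelling had large differences. Tenascin C (Tnc), a matrix protein of healing tissue, read 7.77 and 10.79, the collagenase Mmp13 4.38 and 7.11, the gelatinase Mmp9 5.76 and 7.86, and Timp1, which inhibits such enzymes, 5.19 and 6.81. In total 6 of 16 matrix remodelling genes were at least 1 unit higher. The fibrillar collagens themselves did not differ by 1 unit: Col1a1 is given above and Col3a1 read 12.05 and 12.42. Of 16 fibroblast genes 1 was past 1 unit (Col6a3, 9.53 and 10.66). Endothelial genes had 4 of 11, with the adhesion molecules Vcam1 at 6.31 and 7.80 and Selp at 5.84 and 6.92.

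At the other end of the response stood the hair follicle. Inner root sheath genes, which form the sleeve that moulds the growing hair, were at least 1 unit lower in 13 of 14, with a median of -3.51. Trichohyalin (Tchh), the protein that hardens the sheath, read 12.25 and 7.69, Krt71 12.00 and 7.87, Krt27 11.46 and 7.19, and Krt25 11.40 and 7.76. The member that went the other way was Tgm3, a transglutaminase of both sheath and epidermis, at 7.98 and 9.83. Hair shaft keratins were lower in 12 of 13 (median -2.87), among them Krt33a at 10.11 and 5.82 and Krt35 at 9.88 and 6.40. Of 45 hair keratin-associated proteins, the sulphur-rich or glycine-rich proteins that embed the shaft keratins, 36 were lower and 1 higher (Krtap12-1, 4.17 and 5.33), with a median of -2.52. Krtap8-1 had the lowest difference of all genes, 10.33 on WT_CTRL and 4.04 on WT_IMQ (78.6-fold lower), and Krtap22-2 read 9.33 and 4.22. Many of these genes are near copies, so single values are uncertain.

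Many of the hair keratin and keratin-associated genes just counted lie side by side, so the counts for their stretch largely repeat those above. From Krt25 to Krt36 on the chromosome of the type I keratins, 46 genes were measured, 35 of them at least 1 unit lower and 0 higher; Krt10, an epidermal keratin inside the same stretch, read 12.51 and 12.81. Across the genome, 75 of the 469 placed lower genes (16%) stood in runs of at least 3 measured neighbours that were all at least 1 unit lower, and 54 of the 553 placed higher genes (9.76%) stood in such upward runs. The longest downward run held 15 genes, from Krt39 to Krtap4-8.

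Promoters of 4 of these genes are printed because they carry the motif found in the largest share of the lower genes among those searched. Capitals mark TATAAA, and also a STAT motif (TTCNNNGAA) in Krt25 and a C/EBP motif on the opposite strand in Krtap8-1.
Krt25 promoter, GRCm38.p6, chr11:99322952-99323201, minus strand: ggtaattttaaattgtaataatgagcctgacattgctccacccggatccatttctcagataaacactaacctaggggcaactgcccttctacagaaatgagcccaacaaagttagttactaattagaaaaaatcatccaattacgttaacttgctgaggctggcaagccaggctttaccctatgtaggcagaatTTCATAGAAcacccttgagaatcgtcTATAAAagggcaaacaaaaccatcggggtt
Krt26 promoter, GRCm38.p6, chr11:99337966-99338215, minus strand: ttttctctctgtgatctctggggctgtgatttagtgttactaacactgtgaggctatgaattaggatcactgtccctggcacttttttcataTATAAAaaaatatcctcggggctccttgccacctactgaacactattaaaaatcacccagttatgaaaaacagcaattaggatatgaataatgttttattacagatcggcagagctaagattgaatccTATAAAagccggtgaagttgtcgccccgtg
Krt71 promoter, GRCm38.p6, chr15:101743098-101743347, minus strand: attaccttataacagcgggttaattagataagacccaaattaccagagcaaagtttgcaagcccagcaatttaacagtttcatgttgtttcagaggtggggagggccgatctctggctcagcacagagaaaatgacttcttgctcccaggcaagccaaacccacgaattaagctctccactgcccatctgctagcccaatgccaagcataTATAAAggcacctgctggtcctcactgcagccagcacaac
Krtap8-1 promoter, GRCm38.p6, chr16:89487953-89488202, minus strand: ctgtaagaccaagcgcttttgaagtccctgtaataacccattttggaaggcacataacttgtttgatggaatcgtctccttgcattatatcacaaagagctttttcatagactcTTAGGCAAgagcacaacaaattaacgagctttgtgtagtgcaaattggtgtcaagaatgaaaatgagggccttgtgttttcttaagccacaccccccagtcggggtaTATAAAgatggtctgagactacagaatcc
TATAAA lay 30 to 25 bases before the start in Krt25 and Krt26, 40 to 35 in Krt71 and 29 to 24 in Krtap8-1, and Krt26 held a further match at 158 to 153 bases. Krt25 and Krt26 are neighbours and both far lower with IMQ (differences of -3.64 and -4.43), yet only 22% of their printed bases were alike position by position.

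Over whole promoters, from 250 bases before to 50 after the start, TATAAA on the strand of the gene was present in 8.4% of the 16918 genes with a RefSeq promoter, in 27.2% of the 92 with a promoter among the 112 genes at least 2 units higher, and in 56% of the 100 among the 124 at least 2 units lower. The AP-1 motif (TGANTCA, both strands) was present in 7.37%, 21.7% and 10%, in the same order. The C/EBP motif (TTGCNNAA, both strands) was found in 10.1%, 20.7% and 16%, the NF-kB motif (GGGANTTTC) in 1.12%, 5.43% and 2%, and the interferon-stimulated response element (TTCNNTTTC) in 8.1%, 15.2% and 12%. The STAT motif (TTCNNNGAA) was found in 8.02%, 5.43% and 14%, and the GRHL motif (AACCNGTT) in 1.92%, 3.26% and 2%. The sets differed in base composition as well, with a median GC content of 56.3%, 46.7% and 45%, and 13, 3 and 3 CpG dinucleotides in the median promoter. The part of base composition and of related copies in these shares was not tested, and the ends of the NF-kB and interferon motifs can overlap.

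Regulators and neighbours of the follicle were lower by less than its structural proteins. Of 24 follicle regulators 5 were at least 1 unit lower and 0 higher, with a median of -0.71. Lef1, the Wnt effector of the hair matrix, read 9.06 and 6.65, Hoxc13, which drives hair keratin genes, 8.26 and 5.99, and Msx2 7.28 and 5.37; Lgr5, a marker of follicle stem cells, read 8.28 and 7.99. Melanocyte genes were lower in 7 of 10 (median -1.69): the pigment enzymes Tyrp1, Tyr and Dct read 9.76 and 7.43, 6.98 and 4.73, and 10.02 and 8.05, while the lineage factor Sox10 read 5.66 and 5.58. Arrays without IMQ were themselves unequal. The median melanocyte level was 7.67 on WT_CTRL, 6.22 on KO_CTRL, 7.82 on KO_CTRL-B and 6.68 on KO_Allo. For hair shaft keratins it was 8.30, 6.29, 9.22 and 7.72, in the same order. Sebaceous gland genes were lower in 3 of 17 (median -0.60), led by the desaturase Scd3 at 9.50 and 6.12.

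Tissue below the dermis was lower too. Skeletal muscle genes were at least 1 unit lower in 21 of 22, and their median level was 10.42 on WT_CTRL and 8.58 on WT_IMQ. The fast-muscle calcium buffer Pvalb read 9.52 and 7.04 and creatine kinase (Ckm) 11.46 and 9.30. Median muscle levels on the KO arrays were 10.74 without IMQ and 8.47 with it in the plain pair, 8.48 and 8.18 in the B pair, and 8.44 and 7.99 in the Allo pair, so the arrays without IMQ were themselves unequal. Adipocyte genes were lower in 3 of 12, with leptin (Lep) at 7.79 and 6.55 and Adipoq at 8.12 and 7.34. The part that muscle and fat in the sampled tissue have in other differences was not tested.

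**Figure D4:**
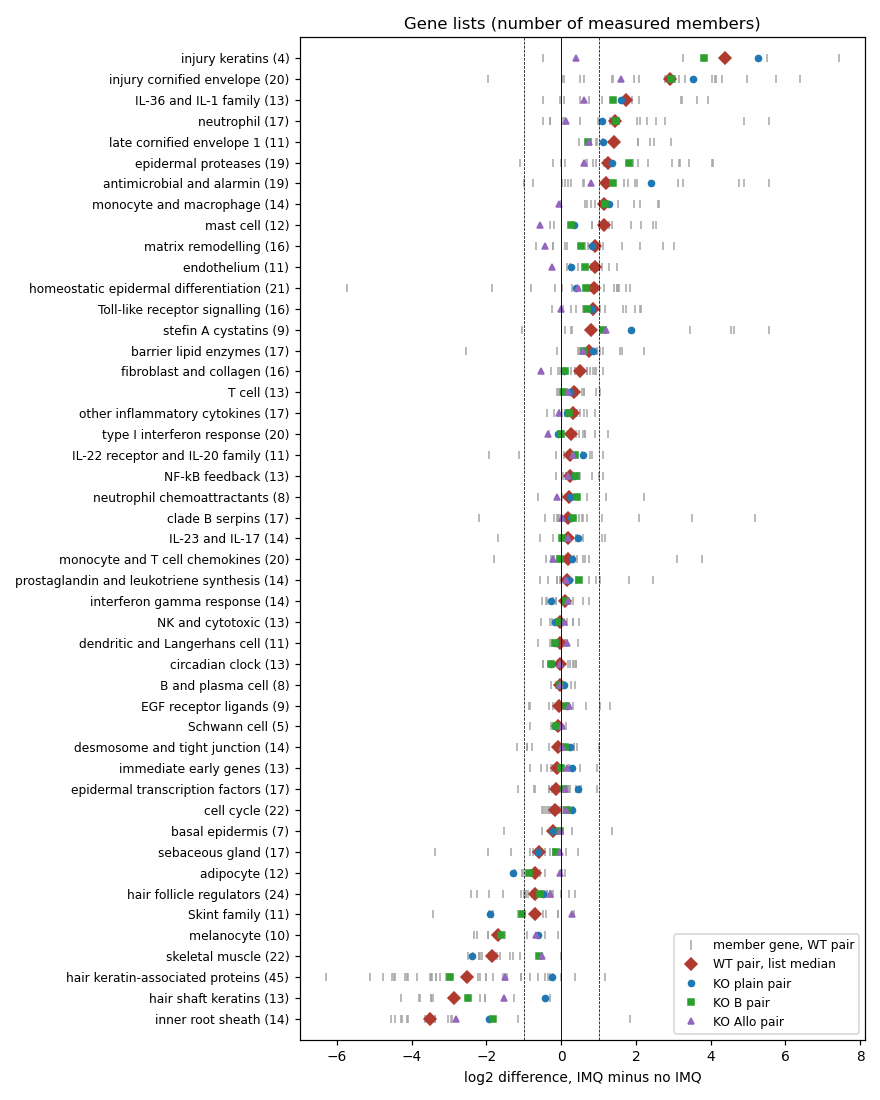
Log2 difference, IMQ minus no IMQ, for 47 gene lists ordered by their wild-type median; red diamonds are the wild-type medians, grey ticks the member genes in wild-type skin, and the blue, green and purple marks the list medians in the plain, B and Allo pairs labelled KO. Dashed lines mark 1 log2 unit: 9 lists have a wild-type median of 1 or higher and 5 of -1 or lower, with injury keratins at 4.39 and inner root sheath at -3.51.

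The 3 pairs labelled KO were set beside the wild-type pair; they share no array with it and are not its replicates. In the KO plain pair 597 genes were at least 1 unit higher (2.69%) and 492 lower (2.22%), in the B pair 406 (1.83%) and 287 (1.29%), and in the Allo pair 171 (0.771%) and 208 (0.938%). Of the 555 genes higher in wild-type skin, 338 were higher by 1 unit in the KO plain pair (60.9% of the wild-type list and 56.6% of the KO list), 303 in the B pair (54.6% and 74.6%) and 83 in the Allo pair (15% and 48.5%). Of the 470 lower genes, 231 were lower in the plain pair (49.1% and 47%), 201 in the B pair (42.8% and 70%) and 123 in the Allo pair (26.2% and 59.1%). The 3 KO arrays with IMQ lay wholly above the 3 without it for 329 of the 555 (59.3%, against 10.1% of all genes), and wholly below for 144 of the 470 (30.6%, against 9.12%). In all 4 pairs, 64 of the 22180 genes were at least 1 unit higher and 36 at least 1 unit lower.

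The KO pair with the fewest shared genes was the plain pair for the largest lower differences and the Allo pair for the largest higher ones. Of the 124 genes at least 2 units lower in wild-type skin, 59 were at least 1 unit lower in the KO plain pair, 107 in the B pair and 83 in the Allo pair; of the 112 at least 2 units higher the counts were 105, 107 and 46. Hair keratin-associated proteins show where the plain pair parted: their median level was 7.12 on WT_CTRL and 4.15 on WT_IMQ, 4.48 on KO_CTRL and 4.15 on KO_IMQ, 8.43 and 5.53 in the B pair, and 6.82 and 4.33 in the Allo pair. KO_CTRL thus read near the IMQ arrays, and its pair had a median difference of -0.24. The upper end was small in the Allo pair, where KO_Allo read high without IMQ: the median of the injury envelope list was 6.37 on KO_Allo, against 4.82 on WT_CTRL, and 8.56 on KO_IMQ_Allo, against 8.37 on WT_IMQ.

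**Figure D5:**
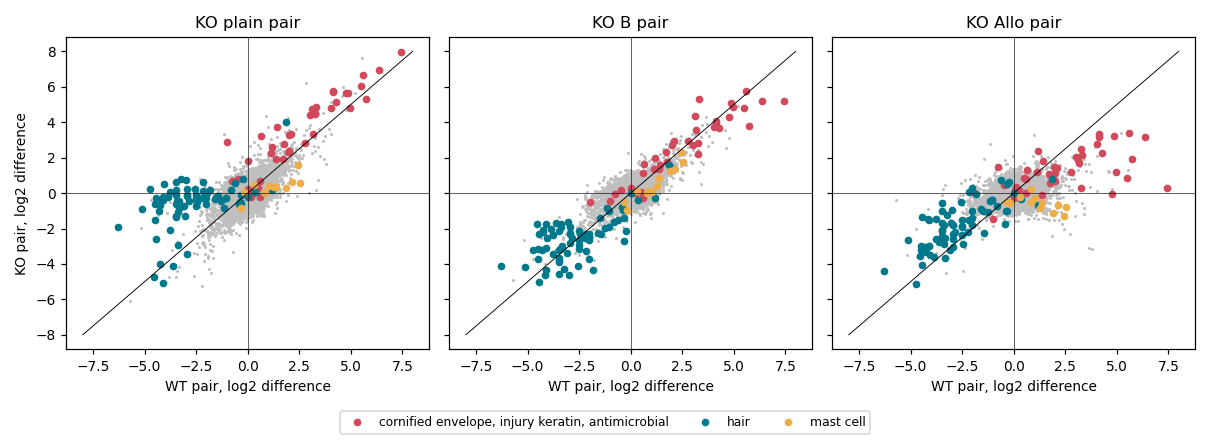
Log2 difference in wild-type skin (horizontal axis) and in each KO pair (vertical axis) for every gene, with the line of equality; red marks the envelope, injury keratin and antimicrobial lists, blue the 3 hair lists and yellow the mast cell list. The 3 red lists, in the order named, have wild-type medians of 2.91, 4.39 and 1.20. Their medians are higher in the plain pair (3.52, 5.26 and 2.40) and 2.94, 3.82 and 1.39 in the B pair. Many blue points lie near 0 in the plain pair (keratin-associated median -0.24) but not in the B pair (-2.97). The yellow points have medians under the line (0.35, 0.27 and -0.57 against 1.16).

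A difference between the wild-type and KO responses was tested with limma over all 22180 genes, using the variation among the 3 KO pairs as error. At an adjusted p under 0.05, 0 genes (0%) were called, the smallest adjusted p was 0.983, and 914 genes had an unadjusted p under 0.05. Without the KO Allo pair the count was again 0, with 874 at the unadjusted level. Of the 555 genes higher in wild-type skin 156, and of the 470 lower genes 110, differed by under 1 unit in all 3 KO pairs. Most of the 22180 genes meet this KO condition, since at most 2.69% were higher and 2.22% lower by 1 unit in any KO pair. Since 0 genes were called at all, none of these 156 and 110 could be among the called ones. A missing call does not show that the responses were alike.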

How the data were processed

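RNA from dorsal skin was hybridised to 8 Affymetrix arrays, 1 per label. The deposited log2 values are the authors' RMA (robust multi-array average) output; the submitters' processing notes name Affymetrix Power Tools and, without a role, R 3.3.2. RMA puts arrays on a common distribution, compresses differences of dim genes and removes a difference shared by most genes; array medians differed by at most 0.05. The number of arrays limits the precision. Of 41345 probe sets, 23521 had 1 gene symbol, 1814 several and 16010 none; 21994 of 22180 genes matched RefSeq (GRCm38.p6). Older symbols such as Il1f6 were kept.

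Members and the 48 gene lists (47 with at least 3 measured genes) were chosen with earlier results of these data known. Genes were named as the 15 highest and 15 lowest differences above the median level, up to 4 per list by size and the whole IL-22 list; other members are named for contrast, chosen after seeing their values. The 15 and 15 leave out clone-type symbols. Wild-type and KO responses were compared with limma 3.58.1 (R 4.3.3, a level per pair, eBayes, Benjamini-Hochberg over all genes, 2 residual degrees of freedom). The same fit was run on simulated data with independent noise, which do not copy the unequal KO pairs. Since nothing says that arrays hold separate animals, the limma p-values speak only of variation among these arrays, which may be technical. Promoters are RefSeq's. Alternatives varied the probe set, centring, normalization, dim genes, prior and KO pairs. Protein sequences were not analysed here.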

Additional observations from a re-analysis of the deposited data

Results flagged for a closer look

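Myoz2, a protein of the muscle Z-disc, was lower with IMQ in wild-type skin (6.02 and 4.90, a difference of -1.11) and higher in all 3 KO pairs (by 0.54, 0.44 and 0.25). The difference between the responses was -1.52 ± 0.23 log2 units (standard error), with an adjusted p of 0.983 in limma, and it was not called. It was picked out because every KO pair had the opposite sign.

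Probe sets without a gene symbol, which no comparison above uses, also differed between the wild-type arrays. Of 16010 such probe sets, 355 (2.22%) were at least 1 log2 unit higher with IMQ and 497 (3.1%) at least 1 unit lower. For probe sets with 1 symbol the shares were 2.45% and 2.04%. What these probe sets measure is not given in the annotation used here.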

How the results depend on the processing

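With 1 array on each side, no replicate could be left out of the wild-type pair. Each label has 1 array and no replicate number, so no replicate block could be added. The limma comparison itself has a level for each pair, 1 IMQ effect for the wild-type pair and 1 IMQ effect shared by the 3 KO pairs. The counts of genes at least 1 log2 unit apart kept within 1.5 times of 555 and 470 under each alternative: 551 and 456 with the mean of all probe sets of a gene, 579 and 452 after centring on the median difference, 571 and 452 after quantile normalization of the wild-type arrays, and 475 and 411 without dim genes. Of the genes counted at first, 549 and 456, 555 and 452, 551 and 447, and 475 and 411 remained, in that order. The counts without dim genes are a part of the first counts by construction, so they are no check of them. No named gene changed sign, while the medians of 4 lists near 0 did (clade B serpins, EGF receptor ligands, interferon gamma response and circadian clock), each by under 0.25 log2 units. Averaging probe sets moved 6 named genes, of which Dsg2 went from -1.19 to -0.54, Gata3 from -1.16 to -0.85, Ereg from 1.31 to 0.98 and Alox5ap from 1.03 to 0.72, all back under 1 unit. Only 1082 genes had several probe sets, and 57 of these had any probe set past 1 unit. In 12 of the 57 all probe sets were past 1 unit the same way, and 0 had probe sets past it both ways. Leaving out dim genes moved 9 list medians away from 0, such as stefin A cystatins from 0.79 to 3.46 and mast cell from 1.16 to 1.88, with fewer members. That filter keeps a gene by the higher of its 2 wild-type values. Members that read low on both arrays drop out, while members low on only 1 array stay. The filter can thus move a median away from 0 by itself. The limma comparison of genotypes called 0 genes under all 6 alternatives; the smallest adjusted p was 0.816, without the KO plain pair, where 1350 genes had an unadjusted p under 0.05.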

Other observations

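Large differences outside the gene lists came from several kinds of genes; lists held 681 genes, and 419 of the 555 higher and 352 of the 470 lower genes were in none of them. Gsdmc, a pore-forming gasdermin, read 4.84 on WT_CTRL and 9.61 on WT_IMQ. Among transporters, the dicarboxylate carrier Slc13a3 read 5.33 and 9.09, and Slc7a11, which exchanges cystine for glutamate, 6.32 and 9.17. The redox protein Glrx read 8.19 and 11.06. Spink7, a protease inhibitor of squamous epithelium, read 3.50 and 7.22. Pla2g4d, a phospholipase of the same family as Pla2g4e, read 4.81 and 7.39. Tenascin N (Tnn), a relative of tenascin C, read 5.65 and 8.98 in wild-type skin 5.97 and 6.12 in the KO plain pair, 6.10 and 7.26 in the B pair and 6.86 and 6.28 in the Allo pair; limma gave a difference of responses of 3.08 ± 0.65 log2 units (standard error) with an adjusted p of 0.983, so it was not called.

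On the lower side, among genes that no list holds, Mrgprb3 read 7.37 and 3.55, the beta-defensin Defb8 8.63 and 5.16, Dapl1 9.59 and 5.93 and the GABA receptor subunit Gabrp 9.28 and 6.14. Fbp1, an enzyme of gluconeogenesis, read 7.84 and 4.72. Gabrp and Fbp1 read lower on KO_CTRL (7.97 and 5.93) than on KO_CTRL-B (9.97 and 8.18), as the hair keratin-associated proteins did. The part of hair in these differences was not tested. Myostatin (Mstn), a muscle-made inhibitor of muscle growth, read 8.15 and 4.81, and the muscle deaminase Ampd1 9.15 and 6.53. Among 484 symbols of microRNA genes, 7 (1.45%) were at least 1 unit higher and 7 (1.45%) lower, beside 2.50% and 2.12% of all genes; probe sets of such genes read the gene's transcript and not the mature microRNA.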
